A study of Mus musculus with 2 samples.

Results

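The genes described here encode the degradative machinery of the lysosome: cathepsins and other acid proteases, glycosidases, lipid-handling enzymes and carriers, and proteins of the lysosomal membrane. They were taken as a named list of 33 genes and read from the gene-probe rows whose gene name equalled the member. Of the 33 names, 32 had such rows, among 28084 gene names on each array. Tfeb, the transcription factor of the list, had no row under that symbol, and the probe filed under its older symbol Tcfeb is given separately below.

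The study set regulatory T cells (Tregs, the CD4 T cells that carry the transcription factor Foxp3 and restrain immune responses) lacking the zinc finger factor Bcl11b against wild-type Tregs, and asked how loss of the factor changes gene expression in these cells. Each of 2 arrays compared 1 pool of deficient cells with 1 pool of wild-type cells, all on the C57BL\6 background. The labels name no Cre for either array. The assignment used here was inferred from the Foxp3-GFP reporter, which the first array's labels and the design's Cd4Cre mice share. On that basis, the first array held Foxp3-GFP+ cells sorted from mice with floxed Bcl11b alleles, a Cd4Cre transgene and a Foxp3-GFP reporter (Bcl11bF/F/Cd4Cre/Foxp3-GFP+), beside wild-type Foxp3-GFP+ cells. The second held sorted Tregs of Bcl11bF/F/Foxp3Cre mice beside wild-type Tregs, for which the labels state no reporter or sort marker. Cd4Cre is active in all T cells from the CD4-expressing stage of the thymus onward, so other T cells of those mice lack Bcl11b as well, whereas Foxp3Cre acts where Foxp3 is expressed. Each wild-type pool came from 3 mice, and the number of mice in the deficient pools, their age and their sex are not given in the sources used here. Wild-type RNA carried Cy3 and deficient RNA Cy5 on both arrays. With 1 array per Cre system, a difference on a single array has no replicate check and no p-value. The Cre system, the mice and the slide cannot be told apart from one another, nor can the dye be told apart from the loss of Bcl11b, since it was not swapped.

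Lysosomes are the acidic compartments in which cells break down proteins, glycans and lipids delivered by endocytosis and autophagy. Their hydrolases are made as inactive or masked precursors, carried from the Golgi mostly through mannose 6-phosphate tags, and held in a membrane rich in LAMP glycoproteins. Many of these genes carry a palindromic promoter element, called CLEAR, that is bound by TFEB and its relatives when nutrient signalling through mTORC1 falls. In T cells and other immune cells, cathepsins also process granule enzymes, antigens and the invariant chain of class II molecules.

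The promoter sequences are shown because the CLEAR element is the feature by which lysosomal genes are usually grouped. Promoter windows, from 250 before to 50 after the gene start, were taken from the RefSeq table of assembly GRCm38.p6, which held 28 of the 33 members. The core CACGTG, which reads the same on both strands, was found in 9 of the 28, against 8.09% of all 27025 genes with such a window. The 9 were Ctsa, Ctsd, Ctsf, Ctsl, Gaa, Glb1, Lamp1, Lgmn and Mcoln1. The longer letters TCACGTG, searched on both strands, were in 7 of these windows and in 4.29% of all genes. The palindrome TCACGTGA was in 3 member windows (Ctsa, Ctsd and Mcoln1) and in 1.12% of all genes. The full 10-base CLEAR palindrome was in 0 member windows and in 0.370% of all genes. These motifs are nested, so each longer match is also a match of the core. A match describes the letters of a window and was not read as a bound site.

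The 3 windows that hold the 8-base form are followed by Lamp1, which has 4 cores within 60 bases, by Gaa, and by Ctsl, the only member with a core whose loess ratio was above 0 on both arrays. Capitals mark the core, and each sequence is written 5′ to 3′ on the strand of its gene.
Mcoln1, chr8:3500462-3500491, plus strand: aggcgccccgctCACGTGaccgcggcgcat
Ctsd, chr7:142387908-142387937, minus strand: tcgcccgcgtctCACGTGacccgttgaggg
Ctsa, chr2:164833743-164833772, plus strand: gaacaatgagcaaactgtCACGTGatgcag
Lamp1, chr8:13159096-13159155, plus strand: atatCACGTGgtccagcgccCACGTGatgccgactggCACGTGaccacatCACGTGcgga
Gaa, chr11:119267811-119267840, plus strand: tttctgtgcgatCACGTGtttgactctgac
Ctsl, chr13:64370739-64370768, minus strand: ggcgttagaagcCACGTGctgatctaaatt
The core shown began 45 bases before the gene start in Mcoln1, 98 bases before it in Ctsd and 12 bases before it in Ctsa, which had another core 5 bases after the start. In Lamp1 the 4 cores began between 61 and 15 bases before the start.

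**Figure D1:**
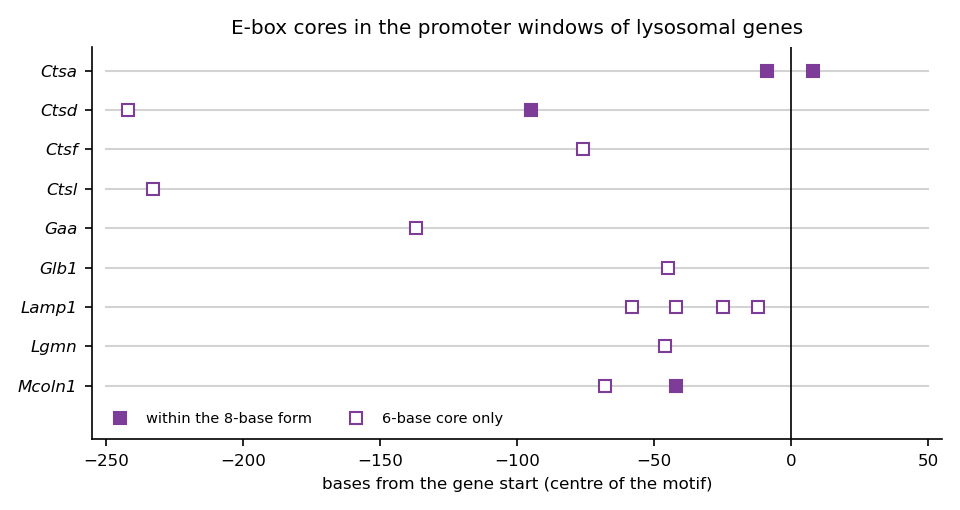
Position of each CACGTG core in the promoter windows of the 9 members that hold one, with the x axis in bases from the gene start (vertical line) to the centre of the motif. Filled squares lie within the 8-base form found in Ctsa, Ctsd and Mcoln1, open squares are cores alone, and Lamp1 shows 4 of them.

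All ratios are log2 values of deficient over wild type after loess normalization within the array, so a negative value means less signal in the deficient pool. A signal is the log2 intensity of one channel, scaled across the arrays. Each gene has the value of the probe with the highest signal over both arrays, and counts as detected on an array if 1 or both channels of that probe were well above background there. The error beside a single-array ratio is that of the scanner software's error model, which covers 1 array and is no replicate error. Over the members it ranged from 0.20 to 0.40 where a gene was detected. Because each value comes from a pool of sorted cells, fewer cells of a type and less RNA per cell cannot be told apart.

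Among all genes, 15916 were detected with Cd4Cre and 15231 with Foxp3Cre, and no spot was saturated. Bcl11b was lower in the deficient pool on both arrays, with ratios of -2.46 and -1.82, while its second probe gave -1.19 and -0.32. Whether these probes lie in the deleted part is not given in the sources used here. Foxp3 had a ratio of -3.57 with Cd4Cre and -0.20 with Foxp3Cre. All 8 T cell and Treg markers were above background in all 4 pools, but with Cd4Cre all 8 had a ratio below 0 under loess (6 under median centring) and 5 were past 2-fold lower, at a median of -1.56, among them Ctla4 at -3.48 and Il2ra at -2.86. With Foxp3Cre 4 of the 8 were below 0, at a median of 0.089 (0.73 under median centring). The part of this difference in the member ratios was not tested. The deficient pools also differed from the wild type in markers of other cells. A summed signal takes in every marker of a list that has a probe, also those not above background. Of 8 neutrophil markers, the 8 detected with Cd4Cre and the 7 with Foxp3Cre all had a ratio past 2-fold higher. Their summed signal (log2) went from 11.5 to 17.9 and from 15.1 to 17.3. Elane was above background with Cd4Cre in the deficient channel alone, which bounds its rise there only at 1.33-fold or more. With Cd4Cre, the 5 NK markers were all past 2-fold higher, with a summed signal of 14.1 against 18.0, and 1 of them was so with Foxp3Cre, at 14.96 against 15.33. The 5 salivary gland markers were past 2-fold lower with Foxp3Cre, where their summed signal went from 16.3 to 12.3.

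In all 4 pools the lysosomal genes were expressed: the 32 genes with a row were above background in both channels of the Cd4Cre array, and 31 of them in both channels of the Foxp3Cre array. The exception was Ctsk, cathepsin K, the collagenase of osteoclasts, which was not well above background in either channel there. On the first array 4 members were past 2-fold higher in the deficient cells (Ctsh, Ctsw, Cd63 and Ctsl), against 11.4% of all detected genes, and 3 were at least 2-fold lower (Ctse, Mcoln1 and Lgmn), against 10.6% of all detected genes. On the second array 1 member, Ctse, was at least 2-fold higher, against 2.94% of detected genes, and 3 were at least 2-fold lower (Psap, Man2b1 and Neu1), against 11.5%. No member passed 2-fold in the same direction on both arrays, where 1.34% of the 14411 genes detected on both were higher and 4.57% were lower. These member shares lie close to the shares of all genes.

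The members' median ratio was 0.0059 on the Cd4Cre array, beside -0.050 over all detected genes, and -0.15 on the Foxp3Cre array, beside -0.084. Median centring without loess, which leaves in any trend of the ratio with signal, gave member medians of 0.57 and 0.34 beside 0.071 and 0.16 over all genes. It moved the median of all genes by 0.12 and 0.25. The member counts became 8 higher and 1 lower with Cd4Cre and 8 higher and 0 lower with Foxp3Cre. Of all 15916 genes detected with Cd4Cre, 2862 were then past 2-fold higher and 1325 lower. With Foxp3Cre these counts were 2048 and 1028 of 15231. Of all genes past 2-fold, the share that was higher went from 51.8% to 68.4% (Cd4Cre) and from 20.3% to 66.6% (Foxp3Cre) under median centring, and to 44.7% and 36.4% with the ratio computed by the scanner software. A member's direction is therefore given below with its value under median centring wherever that turns it.

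**Figure D2:**
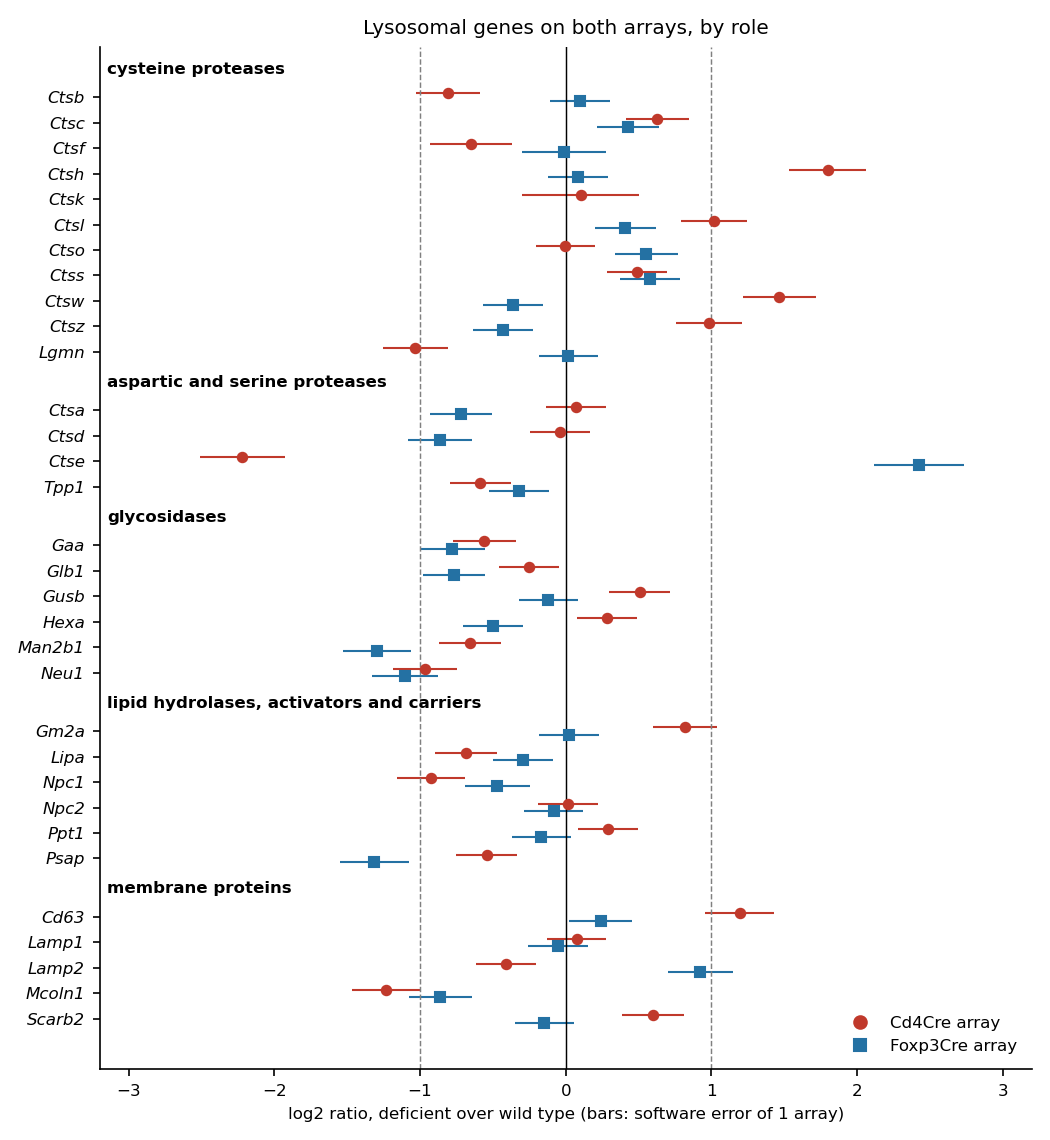
Log2 ratio of deficient over wild type (x axis) for each member on the Cd4Cre array (red circles) and the Foxp3Cre array (blue squares), grouped by role. Horizontal bars are the software error of 1 array and dashed lines mark 2-fold. Ctse lies past 2-fold on both sides of 0, and all 6 glycosidases lie below 0 on the Foxp3Cre array with loess, against 4 of 6 with median centring.

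Cathepsin E was the member with the widest separation. Ctse encodes an intracellular aspartic protease of immune and epithelial cells, and its signal was 14.29 in the wild-type and 12.07 in the deficient pool of the Cd4Cre array, 4.66-fold lower (ratio -2.22, software error 0.29). In the Foxp3Cre comparison it was 13.00 in wild type and 15.43 in deficient cells, 5.37-fold higher (ratio 2.43, software error 0.31). The wild-type pool was thus the higher of the pair on one array and the lower on the other, and the deficient pools differed from each other more than the wild-type pools did. Ctse was read from 1 probe, at chr1:133571935-133571994 of mm9 in the array's annotation. The probe is printed because the finding rests on it alone, and its first 30 of 60 bases are these.
Ctse probe: atgtctaacatccttacaaatcagaattta
Its Foxp3Cre ratio exceeded its Cd4Cre ratio by 4.65, and of the 14411 genes detected on both arrays 1 had a larger difference in that direction. Only 0.125% of these genes, 18 in number, were past 2-fold lower with Cd4Cre and past 2-fold higher with Foxp3Cre. The signs held under each of the 9 alternative settings, with median centring giving -1.81 and 3.16. The filters on dim probes cannot change a ratio. For a gene with 1 probe in 1 spot, such as Ctse, neither can the mean over probes or the keeping of outlier spots. The limma mean over both arrays was 0.10 with a standard error of 0.89 and an adjusted p of 0.961, since the opposite ratios cancel and count as spread. The difference between the Cre systems itself was not tested, as each has 1 array. Mast cell and basophil markers, with 4 of 7 detected on each array, had a summed signal over all 7 of 10.91 against 11.02 in the Cd4Cre pools. In the Foxp3Cre pools it was 10.1 against 11.9, where 1 of the 7 was above background in wild-type and 4 in deficient cells. Of 4 platelet markers, 2 were detected with Cd4Cre, Pf4 at 1.38 and Itga2b at -0.33. With Foxp3Cre Pf4 alone was detected, with a ratio of 2.51. The part of these cells and of the neutrophils above in the Ctse ratios was not tested.

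**Figure D3:**
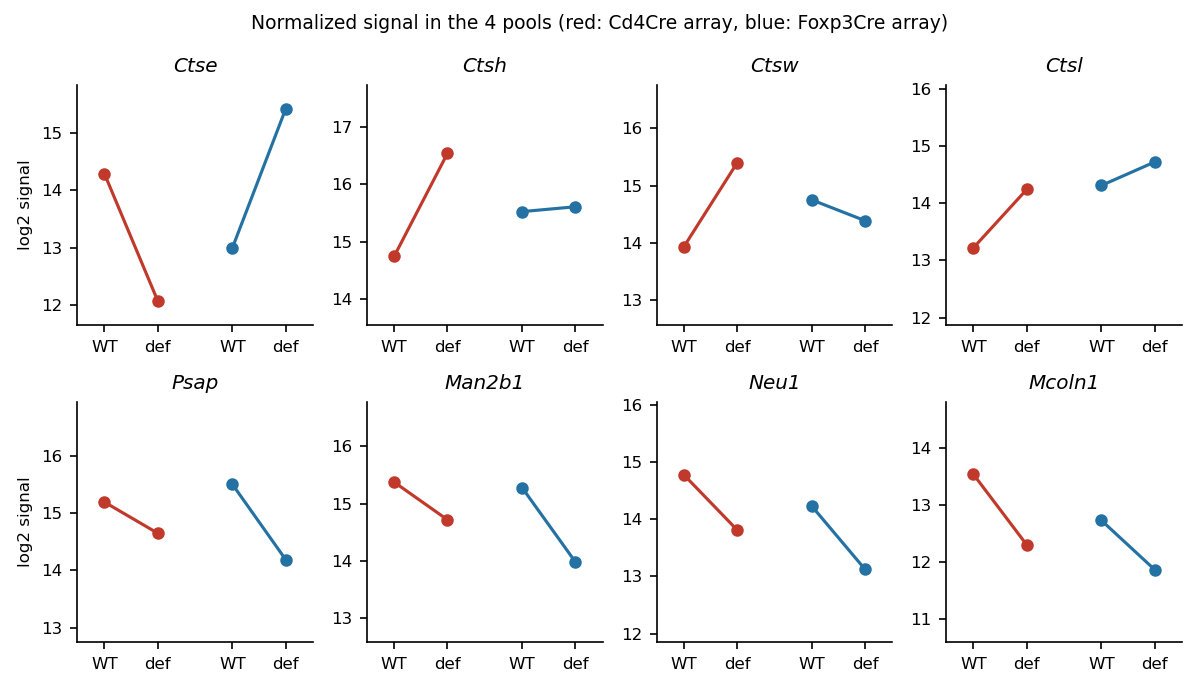
Normalized log2 signal (y axis, the same span in every panel) of 8 members in the wild-type (WT) and deficient (def) pool of the Cd4Cre array (red) and the Foxp3Cre array (blue), 1 pool per point. The line for Ctse falls from 14.29 to 12.07 on the first array and climbs from 13.00 to 15.43 on the second, while Psap, Man2b1, Neu1 and Mcoln1 slope down on both.

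The cysteine proteases held the largest positive ratios of the Cd4Cre comparison, their median being 0.49 over the 11 there and 0.091 over the 10 detected with Foxp3Cre, or 1.36 and 1.11 under median centring. Ctsh, an aminopeptidase of the papain family, had a signal of 14.74 in wild-type and 16.54 in deficient cells of the Cd4Cre array, 3.48-fold higher. The Foxp3Cre pools gave 15.52 and 15.61, a ratio of 0.085 that is below the software error of 0.20. The deficient Cd4Cre pool thus stood above the other 3 pools, which spanned less than a doubling. Ctsw, cathepsin W, known from NK cells and cytotoxic T cells, went from 13.93 to 15.40 in the Cd4Cre comparison, 2.76-fold higher. It was 14.75 in wild type and 14.39 in deficient cells of the Foxp3Cre comparison, a ratio of -0.36 that median centring turned to 0.45. The NK markers given above and the CD8 markers, with both of 2 detected and a summed signal of 14.7 against 15.9 in the Cd4Cre and 15.8 against 15.8 in the Foxp3Cre comparison, were likewise higher in the deficient Cd4Cre pool. Their part in the Ctsw ratio was not tested.

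Ctsl, the broad endopeptidase cathepsin L, was higher in the deficient pool of both arrays. Its signal went from 13.22 to 14.24 in the Cd4Cre comparison, 2.03-fold, and from 14.31 to 14.72 in the Foxp3Cre comparison, 1.33-fold. Ctsc, dipeptidyl peptidase I, which activates granzymes and other granule proteases, had ratios of 0.63 and 0.43. Ctss, cathepsin S, which trims the invariant chain in antigen-presenting cells, had ratios of 0.49 and 0.58. These 3 and Ctsh kept positive ratios on both arrays under all 9 alternative settings. Each has 1 probe in 1 spot, so the settings named for Ctse as unable to change a ratio could not change theirs. Each was past 2-fold on both arrays under median centring, for which the share of all genes past 2-fold on both is not given. In the limma fit of the mean over both arrays none was called, with adjusted p of 0.256 for Ctsh, 0.261 for Ctsl, 0.368 for Ctsc and 0.360 for Ctss. Under median centring Ctss alone of the members was called, with ratios of 1.82 and 1.92 and an adjusted p of 0.0413 by limma. That setting leaves in any trend of the ratio with signal, and Ctss was among the brightest members, with signals from 16.54 to 17.12. The number of all genes called under it is given in the last section.

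The macrophage and monocyte markers, 10 of 11 detected on each array, had median ratios of -0.98 and 0.11 and did not move as one list. Lyz2, lysozyme, which neutrophils and macrophages share, had ratios of 3.58 and -0.038, or 4.68 and 1.27 under median centring, and Csf1r, the macrophage growth factor receptor, had -1.50 and -1.20. The summed signal of that list, wild type against deficient, was 16.8 against 18.2 and then 17.3 against 17.3. Dendritic markers, with 6 of 6 detected, had a summed signal of 12.3 against 14.1 and 12.9 against 12.9, and B cell markers, with 6 of 7 detected, had 14.6 against 16.0 and 16.1 against 16.1. Their part in the cathepsin ratios was not tested.

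The other cysteine proteases did not have a positive ratio on both arrays under loess. Under median centring Ctsb, Ctso, Ctsw and Ctsz did. Lgmn, the asparaginyl endopeptidase legumain, which cuts other cathepsins to their mature forms, went from 13.92 to 12.89 in the Cd4Cre comparison, 2.04-fold lower, and was 12.58 and 12.60 in the Foxp3Cre pools. Its Cd4Cre ratio of -1.03 was just past 2-fold and fell short of it at -0.58 under median centring and at -0.99 both with the scanner software's ratio and with the GC trend removed. The wild-type Cd4Cre pool was therefore the one that stood apart. Ctsb, cathepsin B, had ratios of -0.81 and 0.097, which median centring turned to 0.45 and 1.34, and its second probe gave -1.04 and -0.54. Ctsz, the carboxypeptidase cathepsin X, had 0.98 and -0.43, or 1.71 and 0.30 under median centring. Ctsf had -0.65 and -0.014. Ctso had -0.0022 and 0.55, the first turning to 0.24 under median centring. Ctsk had 0.10 on the array where it was detected, within its software error of 0.40, and -0.0058 under median centring.

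The remaining aspartic and serine proteases were level or lower under loess. Ctsd, cathepsin D, the main aspartic protease of lysosomes, had a signal of 15.32 and 15.28 in the Cd4Cre pools and of 15.42 and 14.56 in the Foxp3Cre pools, ratios of -0.040 and -0.86 that became 0.86 and 0.065 under median centring. Ctsa, the serine carboxypeptidase that shields sialidase and beta-galactosidase in a complex, had 0.072 and -0.72, and 0.025 in place of the second under median centring. Tpp1, a tripeptidyl peptidase lost in a childhood neuronal storage disease, had -0.59 and -0.32, which became 0.28 and 0.57 under median centring, and its 2 probes disagreed in sign on both arrays.

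Glycosidases lay mostly below 0 under loess. All 6 had a negative loess ratio with Foxp3Cre (median -0.77) and 4 of 6 with Cd4Cre (median -0.41), beside 54.6% and 52.8% of all detected genes, whereas median centring left 4 of 6 negative with Foxp3Cre (median -0.42) and 2 of 6 with Cd4Cre (median 0.13). Neu1, the lysosomal sialidase, went from 14.78 to 13.81 in the Cd4Cre comparison, 1.95-fold lower, and from 14.23 to 13.12 in the Foxp3Cre comparison, 2.15-fold lower. Its second probe was also lower on both arrays, at -1.07 and -1.39. The mean log2 ratio of Neu1 was -1.03 with a standard error of 0.33, and its limma adjusted p of 0.134 was the lowest among the members, beside a lowest value of 0.104 over all genes. Neu1 was lower in both deficient pools under all settings, with -0.29 and -0.49 under median centring.

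Man2b1, the lysosomal alpha-mannosidase, went from 15.38 to 14.72 in the Cd4Cre pools and from 15.28 to 13.98 in the Foxp3Cre pools. The latter is 2.46-fold lower, and the mean of -0.98 had a limma standard error of 0.34 and an adjusted p of 0.158. Median centring gave Man2b1 0.19 and -0.46. Gaa, the acid glucosidase that degrades lysosomal glycogen, had ratios of -0.56 and -0.78, which stayed negative under all settings, with -0.55 and -0.70 under median centring. Glb1, beta-galactosidase, had -0.25 and -0.77, and median centring turned the first to 0.075. Thus of the sialidase complex, Neu1 was lower on both arrays. Under loess Glb1 was lower by more than its software error on both arrays, and Ctsa on the Foxp3Cre array alone. Under median centring Glb1 was lower on the Foxp3Cre array alone and Ctsa on neither. Gusb, beta-glucuronidase, a common reference gene printed as 10 spots on each array, had 0.51 and -0.12, with a standard deviation between spots of 0.032 and 0.040. Hexa, the alpha subunit of beta-hexosaminidase, had 0.28 and -0.50. For both of these, the deficient pool was higher on the first array and lower on the second under loess, while median centring put the second values at 0.28 and 0.20.

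Base composition of the probes moved with these ratios on the Foxp3Cre array. Across the 31 members detected on both arrays, probe GC content (35% to 55%, median 43.3%) and the Foxp3Cre ratio had a Pearson r of -0.62 and a Spearman rho of -0.63, while the Cd4Cre ratio gave 0.0059 and -0.092. Over all 14411 genes the Foxp3Cre values were -0.13 and -0.15. These correlations run across genes of 1 array, which are not independent replicates, and are given as a description. The probes of Neu1 and Gaa have 55% GC, and those of Hexa and Gusb 41.7%. After removal of the GC trend over all genes, Neu1 had -0.72 and -0.79, Man2b1 -0.50 and -1.04, and Gaa -0.32 and -0.46, so their signs held.

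The lipid-handling members were led by Psap, which encodes the precursor of the saposins that present sphingolipids to their hydrolases. Its signal went from 15.19 to 14.65 in the Cd4Cre comparison and from 15.50 to 14.19 in the Foxp3Cre comparison, 1.46-fold and 2.49-fold lower. The second probe of Psap gave larger differences in the same direction, -0.98 and -1.86. The mean of the first probe was -0.93 with a standard error of 0.35 and an adjusted p of 0.180 in limma, and median centring gave 0.27 and -0.43. Both probes are shown, by their first 30 of 60 bases, because their agreement bears on this ratio. On mm9 they lie close together, at chr10:59764825-59764884 and chr10:59764492-59764551.
Psap first probe: gttattttggatgattagaagcacagaatg
Psap second probe: aagtcacctacttgtgggtctagggtaatg
Npc1, the membrane transporter that exports cholesterol from lysosomes, had ratios of -0.92 and -0.47, which stayed negative under all settings, while Npc2, its soluble partner, had 0.014 and -0.084. The carrier pair thus differed, with Npc1 lower and Npc2 within the software error of 0.20 on both arrays under loess, and Npc2 at 0.87 and 0.96 under median centring. Lipa, the acid lipase for cholesteryl esters and triglycerides, had -0.69 and -0.29, the second turning to 0.16 under median centring. Gm2a, the GM2 ganglioside activator, had 0.82 and 0.021. Ppt1, which removes palmitate from proteins, had 0.29 and -0.17, and 0.46 in place of the second under median centring.

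Of the membrane proteins, Mcoln1 was lower on both arrays. It encodes TRPML1, the calcium-permeable channel of lysosomes, and its signal went from 13.53 to 12.30 in the Cd4Cre pools, 2.35-fold lower, and from 12.73 to 11.87 in the Foxp3Cre pools, 1.82-fold lower. Its second probe gave -1.57 and -1.01. The mean was -1.05 with a standard error of 0.33 and an adjusted p of 0.134 by limma, and under median centring the ratios were -0.88 and -0.49. Cd63, the tetraspanin of late endosomes and secretory granules, went from 10.14 to 11.34 in the Cd4Cre comparison, 2.29-fold higher, and from 9.89 to 10.13 in the Foxp3Cre comparison, with an adjusted p of 0.285 for the mean of 0.72. Of the abundant structural glycoproteins, Lamp1 had 0.075 and -0.053, within its software error of 0.20 on both arrays, and 0.68 and 0.83 under median centring. Scarb2, which carries glucocerebrosidase to lysosomes, had 0.60 and -0.15, with 0.34 in place of the second under median centring.

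Lamp2 depended on the probe. The brightest probe gave ratios of -0.41 with Cd4Cre and 0.92 with Foxp3Cre, while another probe gave 0.84 and 0.85. The array's annotation assigns them to different transcripts of the gene, which makes isoforms that differ at their membrane end. The Cd4Cre direction turns on the choice between them. Both probes were higher in the deficient Foxp3Cre pool. Among the 12 members with at least 2 probes above background in all 4 channels, the probes disagreed in sign for 2 on the Cd4Cre array (Lamp2 and Tpp1) and for 4 on the Foxp3Cre array (Ctsb, Gm2a, Ppt1 and Tpp1).

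Across the 31 members detected on both arrays, 17 had the same sign on both (54.8%), beside 68.1% of all genes. The shared sign was negative in 11, against 37.9% of all genes, and positive in 6, against 30.2%. These are loess counts. Under median centring more members shared a sign, and more of them were above 0 than below 0 on both arrays. Only Ctsf, Gaa, Mcoln1, Neu1 and Npc1 were then below 0 on both. The shares of all genes for that setting are not given. At 1.5-fold, 3 members were lower on both arrays under loess (Neu1, Man2b1 and Mcoln1), against 13.2% of all genes. Under median centring each of these fell short of 1.5-fold on the Foxp3Cre array, at -0.49, -0.46 and -0.49. The ratios of the 2 arrays had a Pearson r of -0.042 and a Spearman rho of 0.27 across the members, and 0.39 and 0.40 without Ctse, beside 0.48 and 0.50 over all genes. These values are across genes and describe 2 arrays of separate wild-type and deficient pools. In the limma fit of the mean ratio (1 residual degree of freedom), 0 members and 0 of all genes passed an adjusted p of 0.05. Unadjusted p-values under 0.05 were reached by 4 members, Mcoln1, Neu1, Man2b1 and Psap, all lower, beside 14.1% of all genes lower and 22.5% in either direction.

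**Figure D4:**
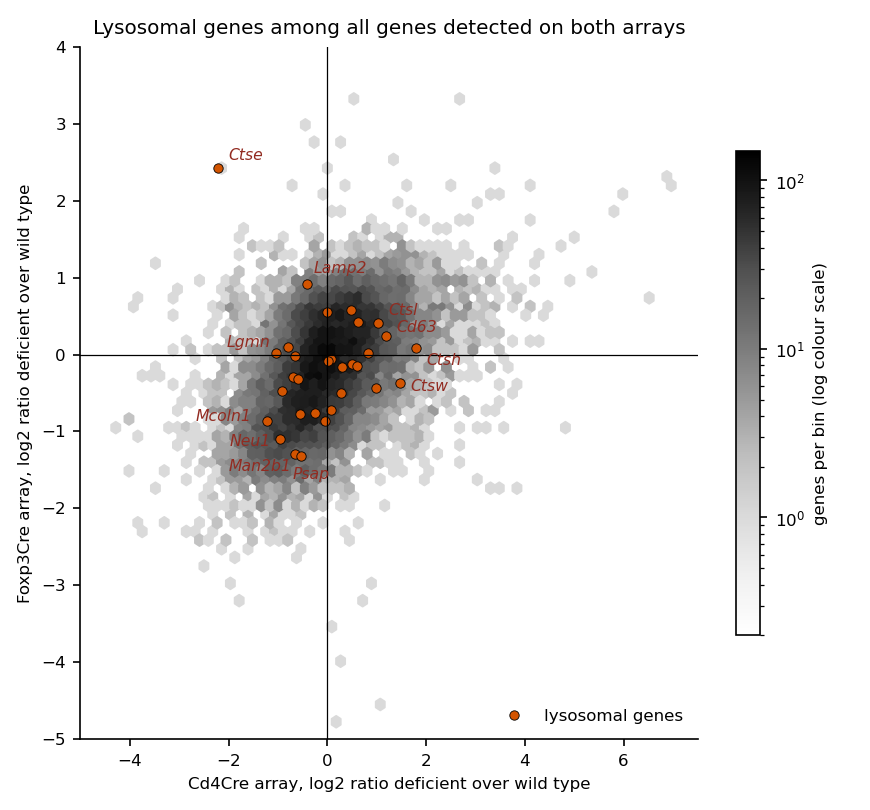
Log2 ratio on the Cd4Cre array (x axis) against the Foxp3Cre array (y axis) for the 14411 genes detected on both (grey hexagons, darker with more genes, log colour scale) and the 31 members detected on both (orange). Ctse lies alone at -2.22 and 2.43, and Mcoln1, Neu1, Man2b1 and Psap lie at the lower left within the cloud of all genes.

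Members with a CACGTG core in the promoter window were compared with the members whose window lacks it, as a description. The 9 with a core had median ratios of -0.25 with Cd4Cre and -0.72 with Foxp3Cre. Of these, 6 and 7 were below 0, beside 52.8% and 54.6% of all detected genes. Median centring turned both medians, to 0.075 and 0.025, with 4 below 0 on each array. The 17 without it that were detected on both arrays had medians of 0.28 and -0.15, with 7 and 11 below 0, and 0.79 and 0.34 under median centring, with 3 and 3 below 0. Under loess the ranges overlapped on both arrays, from -1.23 to 1.02 with the core and from -0.96 to 1.20 without it on the Cd4Cre array, and from -0.86 to 0.41 with it and from -1.32 to 0.92 without it on the Foxp3Cre array. The 3 members with the 8-base form differed among themselves on the Cd4Cre array. There Mcoln1 was lower, while Ctsa and Ctsd were near 0 under loess and at 0.94 and 0.86 under median centring. On the Foxp3Cre array all 3 were lower under loess, with Mcoln1 at -0.86, Ctsa at -0.72 and Ctsd at -0.86. Median centring gave -0.49, 0.025 and 0.065 there. For TFEB itself, the probe filed as Tcfeb had ratios of -0.48 and -0.61, with the wild-type channel alone above background on each array. With Cd4Cre the bound was at least 1.30-fold lower, and the Foxp3Cre array gave no bound above 1. The software errors of the Tcfeb ratios were 0.41 and 0.91, close to or above the size of the ratios themselves.

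The wider lysosomal set holds 98 other genes, chosen with earlier results of these data known, of which 96 were detected on each array. Their median ratio was 0.0062 with Cd4Cre and 0.019 with Foxp3Cre, and 0.26 and 0.32 under median centring. At 2-fold, 11 were higher and 6 lower in the Cd4Cre comparison, and 2 were higher and 8 lower in the Foxp3Cre comparison, beside the shares of all genes given above. Flcn, folliculin, which acts on nutrient signalling at the lysosome and on the cytoplasmic retention of TFEB, was the only one past 2-fold in the same direction on both arrays, at -1.40 and -1.25, and at -1.09 and -0.95 under median centring. The list of TFEB relatives and mTORC1 regulators that holds it had 10 of 14 genes below 0 on each array, with medians of -0.31 and -0.24. Under median centring 7 and 6 of them were below 0, with medians of -0.019 and 0.14. Of all detected genes, 52.8% with Cd4Cre and 54.6% with Foxp3Cre were below 0 under loess. The 12 genes for enzyme targeting had medians of -0.081 and -0.59, with 7 and 9 below 0 under loess and 6 and 6 under median centring. Gga3, a Golgi sorting adaptor, had -1.37 and -0.93.

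Of the 6 lists that make up this wider set, the one labelled cathepsin inhibitors, which holds cystatins, stefins and serpins, had the highest median on each array. Of 10 detected with Cd4Cre, 9 were above 0 and 6 past 2-fold higher (median 1.20), and all 9 detected with Foxp3Cre were above 0 (median 0.49) with none past 2-fold. Of all detected genes, 7515 of 15916 and 6913 of 15231 were above 0, and 11.4% and 2.94% were past 2-fold higher. The 6 were Cst3, Csta, Stfa1 and the serpins Serpinb1a, Serpinb6b and Serpinb9. With Cd4Cre only the deficient channel of Stfa1 was above background, with a bound of 1.64-fold. Median centring left the counts above 0 at 9 and 9, with medians of 1.30 and 0.90 and 3 past 2-fold higher with Foxp3Cre. Serpinb1a, a serpin that blocks neutrophil proteases, had 2.33 and 0.63. Csta, a stefin, was at least 4.28-fold higher with Cd4Cre, where the deficient channel alone was above background, and had a ratio of 0.92 with Foxp3Cre. Neutrophils carry several of these inhibitors, and the neutrophil markers given above were higher on both arrays. Their part in the inhibitor ratios was not tested.

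Among the 25 other hydrolases the medians were 0.082 and -0.35, the second turning to 0.095 under median centring. Asah1, acid ceramidase, had 0.082 and 1.39, and Ggh, gamma-glutamyl hydrolase, 0.94 and 1.06. Acp5, tartrate-resistant acid phosphatase, had -0.56 and -1.83, and the first became 0.089 under median centring. The 17 genes of the proton pump that acidifies the lysosome had medians of 0.12 and 0.22, with 1 and 0 genes past 2-fold higher, and 0.39 and 0.79 under median centring, with 4 and 6. The list also holds Atp6ap1, an accessory subunit, at -0.064 and -1.29 (0.18 and -1.09 under median centring). The 19 membrane and transport genes had medians of -0.061 and 0.15, the first turning to 0.027 under median centring. Rab27a, a GTPase for exocytosis of lysosome-related granules, had -2.02 and 0.22, and Clcn7, the chloride-proton exchanger of lysosomes, -0.73 and -1.36. Mcoln2, a relative of Mcoln1 on the TFEB and mTORC1 list, had 2.23 and 0.60, in the opposite direction to Mcoln1.

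**Figure D5:**
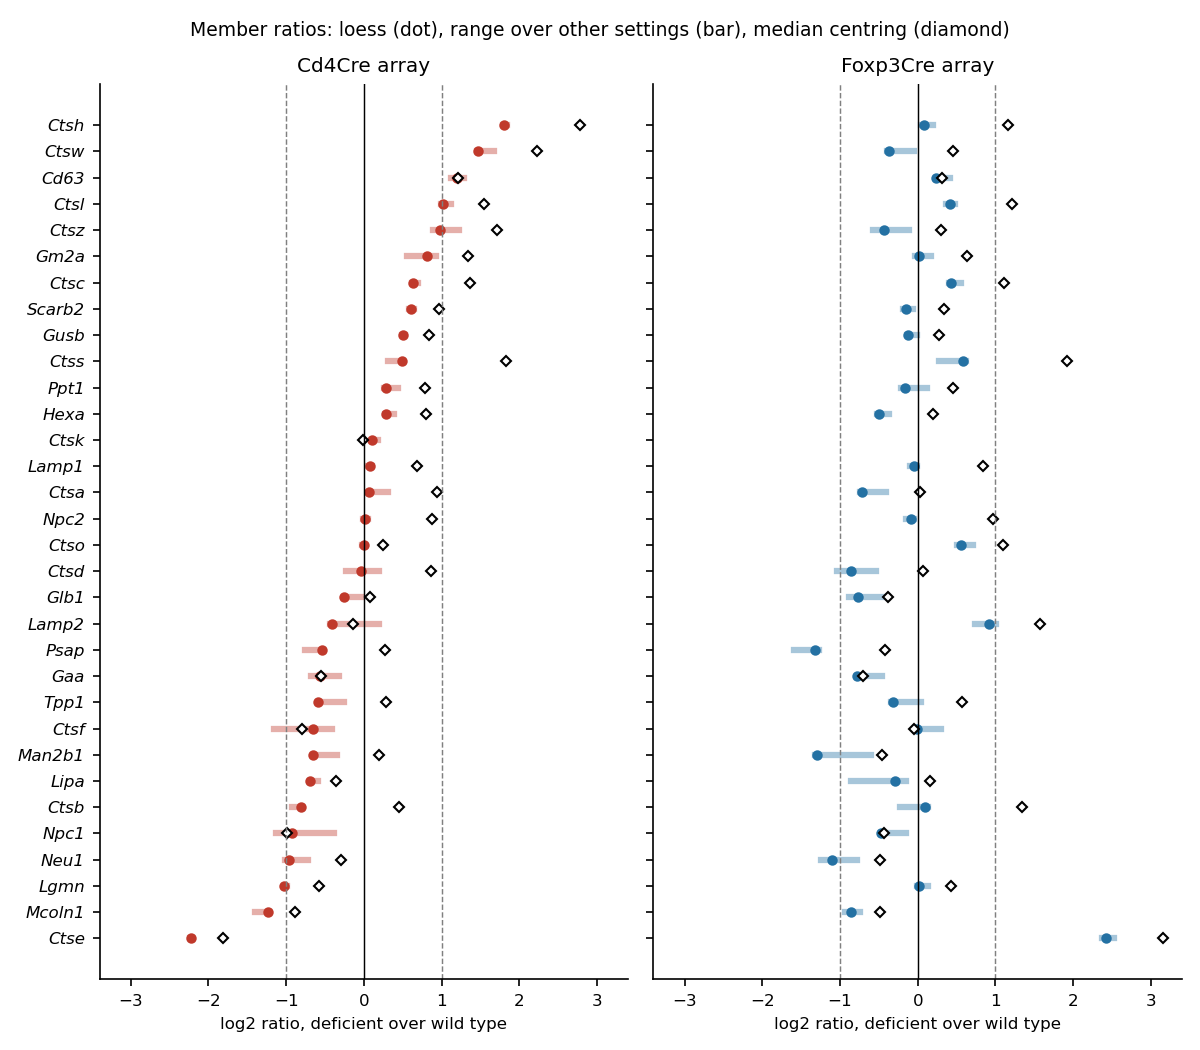
Log2 ratio of each member on the Cd4Cre array (left) and the Foxp3Cre array (right) with loess (dots), the range over the other settings (bars) and median centring (open diamonds), with dashed lines at 2-fold. Ctse keeps its opposite signs, Mcoln1 and Neu1 stay below 0 on both arrays, and Ctsb turns from -0.81 to 0.45 and from 0.097 to 1.34 under median centring.

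Across the settings tried, the sign of the ratio held for 22 of 32 members on the Cd4Cre array and 15 of 31 on the Foxp3Cre array, and for 28 and 25 when median centring was left aside. The filters on dim probes leave each ratio as it was and could not turn a sign. The 5 genes Cd63, Ctsc, Ctsh, Ctsl and Ctss were above 0 on both arrays in every setting tried. Gaa, Mcoln1, Neu1 and Npc1 were below 0 on both arrays in every setting tried. Ctse was the one member whose opposite signs held in all of them.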

How the data were processed

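Sorted Treg RNA of 4 pools was read on 2 Agilent 2-colour arrays. Files deposited by the authors hold the mean and background intensity per spot and channel, a log10 ratio (red over green) with its error from the scanner software, and its p-value. Per the file headers, Feature Extraction was version 10.5.1.1 for the Cd4Cre and 10.7.3.1 for the Foxp3Cre array; the submitters' processing notes name 10.5.1. The deposited value table equalled the log10 ratio (largest difference 0, medians 0), deficient over wild type.

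Intensities were corrected with normexp (offset 50), with loess within each array and control spots at weight 0, in limma 3.58.1 (R 4.3.3). Spots flagged as outliers (137 and 155 of 43379) were left out. Of several probes, the one with the highest signal over both arrays stood for its gene. Signals were scaled between arrays (Aquantile). A bound divides the brighter channel by the dim probe or by the dimmest probe well above background in that channel, whichever is higher, and is open to dye bias. Genes were counted at 2-fold without a test. The limma fit (intercept only, Benjamini-Hochberg, two-sided) took the mean of both arrays over 14411 genes and was tested on simulated data. Precision is limited by the number of arrays.

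Members and lists were chosen with earlier results of these data known. Every member is named; of the other lysosomal genes, those past 2-fold in 1 direction on both arrays and up to 3 highest and 3 lowest past 2-fold on each array. Lamp2's probes were singled out after their values were seen. Alternatives were no background subtraction, offset 10, median centring, the software's ratio, the mean over probes, other filters on dim probes, outlier spots kept, the software's p-value under 0.01, an intensity trend in limma and, added after seeing the data, removal of a GC trend. Probe positions are the files' (mm9).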

Additional observations from a re-analysis of the deposited data

Results flagged for a closer look

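Ctse stood out because its deficient-over-wild-type ratio was -2.22 with Cd4Cre and 2.43 with Foxp3Cre, more than 2-fold in opposite directions under the same contrast. Each Cre system has 1 array, and the difference was not tested.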

How the results depend on the processing

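Median centring without loess changed the most: members at least 2-fold higher were 8 and lower 1 with Cd4Cre, 8 and 0 with Foxp3Cre, and 4 were higher on both (Ctsc, Ctsh, Ctsl and Ctss). For this setting the counts of all genes on each array are given above. The share of all genes higher on both arrays is not given, so the 4 cannot be set against it. Median centring gave member medians of 0.57 and 0.34 and medians of the other lysosomal genes of 0.26 and 0.32. Limma then called 311 of the 14411 genes detected on both arrays, and 1 of the 31 members. With the scanner software's ratio 2 members were at least 2-fold higher on the Foxp3Cre array, Lamp2 (1.001) beside Ctse. The mean over a gene's probes put 1 member, Neu1, at least 2-fold lower on both arrays, and the share of all genes for that setting is not given. Keeping only genes well above background in both channels of both arrays, which tests fewer genes, limma called 34 genes and no member. The cause of the other changes was not tested. Single 2-fold calls were lost where a ratio moved back inside the limit: Lgmn (Cd4Cre) as given above, Ctsl (Cd4Cre) at 0.99 and Neu1 (Foxp3Cre) at -0.79 with the GC trend removed, Man2b1 (Foxp3Cre) at -0.60 with the mean over probes, and Mcoln1 (Cd4Cre), Psap, Man2b1 and Neu1 (Foxp3Cre) under median centring. The mean over probes takes in dim probes, and the second probe of Man2b1 was not well above background in either channel of either array. With the scanner software's ratio, 1160 in place of 448 of all genes were past 2-fold higher with Foxp3Cre. With Cd4Cre, 2972 in place of 1686 were past 2-fold lower. Counts of the other lysosomal lists also moved, as for the cathepsin inhibitors past 2-fold higher with Foxp3Cre, 3 in place of 0. The other planned counts and medians of the members stayed within 1.5 times or the spread used. So did those with the GC trend removed, an alternative chosen after seeing the data. No paired analysis was possible because each Cre system has 1 array and the 2 pools of an array are already set against each other in its ratio. Leaving out 1 array leaves no residual degrees of freedom. Dim signal limits Ctsk, which has no usable Foxp3Cre ratio, and Tcfeb, which has a bound on 1 array.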
